A study of Mus musculus with 15 samples.

Results

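The genes for voltage-gated ion channels and their relatives were followed in mouse brain tumours and in sorted cerebellar cells on expression microarrays. Members were all genes whose symbol began with Kcn, Scn and a digit, Cacna, Cacnb or Cacng, or Hcn and a digit, on probe sets that the platform annotation gives to 1 gene. They numbered 111 of 17097 genes, on 208 of 28898 probe sets. The name is wider than strict voltage gating: 46 members encode pore subunits of the voltage-gated potassium, sodium, calcium or HCN channel families. The other members include 15 inward rectifiers, 9 potassium channels of the 2-pore class and 7 of the calcium- or sodium-activated class. The rest are accessory subunits and 3 RNAs that encode no channel protein. Classes were set by gene symbol, so single members of a class may be gated otherwise. Another 31 reference symbols of the same form are not analysed here.

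Voltage-gated channels open or close when the membrane potential changes, and the sodium, calcium and potassium currents they pass shape the action potential, transmitter release and the resting potential. Accessory subunits bring the pore proteins to the membrane and tune their gating. In the cerebellum, granule neurons acquire their potassium, sodium and calcium currents as they leave the cell cycle, while astroglia carry mainly inward rectifiers and 2-pore channels.

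The 15 samples formed 5 groups of 3 arrays each. Myc secondary tumours came from cultured sphere cells of Myc primary tumours, transplanted orthotopically. Myc primary tumours were raised from cerebellar cells of Cdkn2c-/-, Trp53-/-, Atoh1-GFP mice, infected with Myc and injected into the cortex of nude mice, hosts that lack T cells but keep other immune cells. Shh tumours arose spontaneously in mice of the genotype Cdkn2c-/-; Trp53Fl/Fl; Nestin-Cre, where Nestin-Cre acts in neural precursors and not in one lineage alone. GFP-positive and GFP-negative cells were sorted at postnatal day 6 from cerebella of the same Cdkn2c-/-, Trp53-/-, Atoh1-GFP strain, in which Atoh1 marks granule neuron progenitors. The source cells or mice of all 5 groups therefore lack Cdkn2c, and Trp53 is lost in their germline or through Nestin-Cre. Host cells within the Myc primary tumours come from nude mice, for which neither loss is stated. The sample labels call the sorted cells spontaneous tumour, whereas the design text describes sorted day 6 cerebella, and the design text was followed. Whether a group's 3 arrays stem from 3 animals is not stated, so the p-values measure only the spread between these samples, which may be technical.

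Arrays of a group correlated at 0.962 to 0.995 over all genes. Progenitor and astroglial markers followed the sort. The median signal of the granule neuron progenitor list lay at 8.97 to 9.29 in GFP-positive cells and 6.46 to 6.99 in GFP-negative cells. That of the astroglial list lay at 4.33 to 4.67 in GFP-positive and 10.13 to 11.66 in GFP-negative cells. GABAergic and Purkinje markers were not confined to GFP-negative cells: of 6 measured, 2 were called higher in GFP-positive cells and 0 lower. Among them, Gad1 gave 8.98 to 9.77 in GFP-positive and 7.69 to 9.15 in GFP-negative cells. In the Myc primary tumours the median of the progenitor list was near the array background, at 4.49 to 4.82, against 9.38 to 9.67 in Shh tumours. Still, 2 of its 5 measured markers had a mean above background in Myc primary tumours, among them Meis1 at 7.96, 7.86 and 8.62. Myc primary arrays 1 and 3 gave higher glial marker signals than array 2, with astroglial medians of 8.59, 5.37 and 8.68 and oligodendrocyte medians of 5.59, 4.43 and 9.27 on arrays 1, 2 and 3. Because these are bulk samples, fewer cells of a type and less RNA per cell cannot be told apart. All values below are log2 signals, and every difference is a difference of log2 signals.

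The promoters of 3 calcium channel accessory genes are shown because between Myc primary and Shh tumours Cacng2 had the largest fall among members, Cacna2d2 had the largest rise, and Cacna2d1 is the paralogue of Cacna2d2 that fell. Cacna2d1 and Cacna2d2 encode paralogous alpha2delta subunits, which raise the number of calcium channels at the surface. Cacng2 encodes stargazin, named as a calcium channel gamma subunit and known for carrying AMPA receptors to granule cell synapses. The RefSeq windows hold 300 bases around the gene start on GRCm38.p6, at chr5:15934441-15934740 on the plus strand for Cacna2d1, chr9:107399630-107399929 on the plus strand for Cacna2d2 and chr15:78119231-78119530 on the minus strand for Cacng2, each printed 5′ to 3′.
Cacna2d1: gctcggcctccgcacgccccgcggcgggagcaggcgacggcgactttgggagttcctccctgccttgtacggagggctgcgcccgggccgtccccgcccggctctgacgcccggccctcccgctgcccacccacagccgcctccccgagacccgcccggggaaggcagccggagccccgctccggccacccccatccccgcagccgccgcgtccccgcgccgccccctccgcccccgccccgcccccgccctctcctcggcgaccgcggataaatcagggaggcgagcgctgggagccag
Cacna2d2: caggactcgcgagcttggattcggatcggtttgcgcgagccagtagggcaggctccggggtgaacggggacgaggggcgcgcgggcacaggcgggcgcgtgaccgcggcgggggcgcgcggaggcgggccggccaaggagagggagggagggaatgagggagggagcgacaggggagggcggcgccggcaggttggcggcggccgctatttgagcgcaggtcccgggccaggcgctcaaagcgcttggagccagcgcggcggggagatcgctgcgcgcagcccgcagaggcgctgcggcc
Cacng2: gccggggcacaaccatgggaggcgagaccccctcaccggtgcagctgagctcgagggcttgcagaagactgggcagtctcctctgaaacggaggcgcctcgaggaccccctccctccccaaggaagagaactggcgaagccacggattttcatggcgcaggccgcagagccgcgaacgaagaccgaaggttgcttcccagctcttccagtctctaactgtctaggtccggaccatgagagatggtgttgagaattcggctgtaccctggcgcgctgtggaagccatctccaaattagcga
No letters are in capitals, because none of the motifs searched lay in these windows. Those motifs were the Myc E-box CACGTG, the Gli site TGGGTGGTC and the left part of the RE1 element, TTCAGCACC, each on both strands. The E-box was found in 7.15% of all 32851 windows and in 5.0% of the 120 windows of 86 members, where it belonged to Kcnab1, Kcne4, Kcnj2, Kcnk5 and Kcnn4. The Gli site was found in 0.25% of all windows and in 1 member, Cacnb4, and the RE1 letters in 0.37% of all windows and in no member. The windows shown had a GC content of 80.0% for Cacna2d1, 75.7% for Cacna2d2 and 61.0% for Cacng2, against a median of 57.7% over members and 52.7% over all windows.

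Many of these genes gave little signal. Background was set at 4.77, below which 95% of the signals of 23 nonspecific control probe sets lay. Of the 111 members, 55 had a mean above it in at least 1 group and 19 in all 5 groups. The counts per group were 32 in Myc secondary tumours, 37 in Myc primary tumours, 37 in Shh tumours, 37 in GFP-positive cells and 37 in GFP-negative cells. Among pore subunits of the voltage-gated families it was 20 of 46, among inward rectifiers 8 of 15, among 2-pore channels 6 of 9 and among calcium channel accessory genes 6 of 13. Kcnma1, the BK channel pore, stayed below background in every group, as did Kcnh5, Kcnip1, Kcnip4, Scn1a and Cacna1g. A difference whose lower group is below 4.77 has a size set by the floor of the array. Over the 5 groups, 45 members differed by limma's moderated F-test at an adjusted p below 0.05, where 47.8% of all genes did. The members' share, 40.5%, was no higher than this background.

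**Figure D1:**
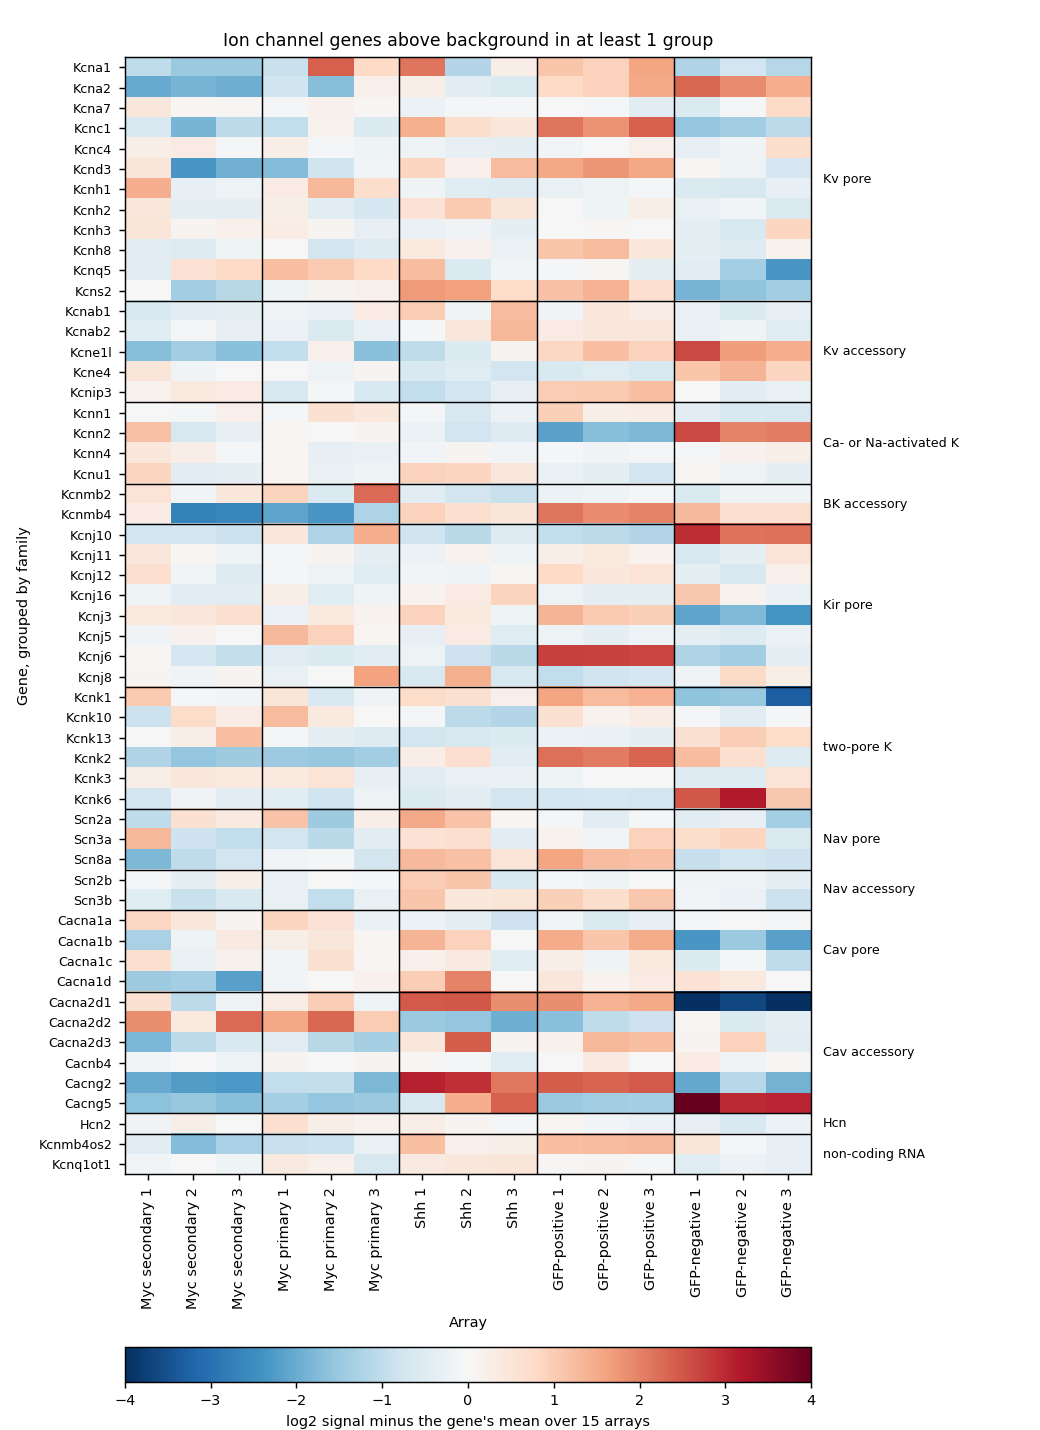
Heatmap of the 55 ion channel genes above background in at least 1 group, with arrays as columns and genes as rows grouped by family. Colour is the log2 signal minus the gene's mean over 15 arrays and saturates at 4 on either side, which 3 values pass, and Cacna2d1, Cacng2 and Kcnj6 show blocks of colour that follow the groups.

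Myc primary tumours were first set against Shh tumours, which asks how the channel genes differ between the 2 kinds of medulloblastoma model. Of the 13 calcium channel accessory genes, 4 fell and 1 rose: Cacng2 was 15.6-fold lower in Myc primary tumours, Cacng5 5.72-fold, Cacna2d3 3.87-fold and Cacna2d1 3.75-fold lower, while Cacna2d2 was 9.77-fold higher. Kcnmb4, a BK channel accessory gene, was 6.01-fold lower. Of 28 potassium channel pores of the voltage-gated class 3 fell and of 8 sodium channel pores 2 fell, with no member of either family higher. In all, 20 members passed limma's test at an adjusted p below 0.05, or 18% of members, where 15.8% of all genes did. Of these, 6 were higher, where 8.46% of all genes were, and 14 were lower, where 7.33% were. The median difference was 0.05 over all 111 members and 0.08 over all genes.

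Among the alpha2delta genes, Cacna2d2 gave 7.94, 8.69 and 7.43 in Myc primary tumours and 4.91, 4.85 and 4.45 in Shh tumours. The groups did not overlap, and the difference was 3.29 ± 0.44 (SE, limma, adjusted p = 3.2e-04). Cacna2d2 is the gene lost in the ataxic ducky mouse. It rose on 1 of its 3 probe sets, and the lowest difference on the others was -0.02. Cacna2d1, whose product binds gabapentin, gave 8.52, 9.20 and 8.0 in Myc primary tumours and 10.67, 10.69 and 10.07 in Shh tumours. It fell by 1.91 ± 0.39 (limma, adjusted p = 0.0051), and all 3 of its probe sets were called lower. Cacna2d3 fell by 1.95 ± 0.57 (limma, adjusted p = 0.036), but Shh array 2, at 7.59, stood above the other Shh arrays at 5.60 and 5.28. Without that array the difference was -1.23 and the adjusted p from limma 0.13.

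Among the genes named as gamma subunits, Cacng2 gave 5.34, 5.36 and 4.53 in Myc primary tumours and 9.42, 9.26 and 8.45 in Shh tumours. The gap between the groups was wider than either group's range, the difference was -3.97 ± 0.29 (limma, adjusted p = 3.7e-06), and both probe sets were called lower. Cacng5, a relative that acts on AMPA receptors of glia and neurons, gave 3.92, 3.75 and 3.81 in Myc primary tumours, all below background, and 4.64, 6.75 and 7.64 in Shh tumours. Its difference of -2.51 ± 0.56 (limma, adjusted p = 0.009) came from Shh arrays 2 and 3, since Shh array 1 was at background. The other probe set of Cacng5 gave 0.22, and in each later comparison that called this gene it was also called on 1 of its 2 probe sets. Of the calcium channel pores, Cacna1a, the P/Q-type pore that mediates transmitter release, was higher by 0.88 ± 0.27 (limma, adjusted p = 0.044), with overlapping arrays and 1 of 4 probe sets called. Another of its probe sets gave -0.87, and the mean of its probe sets gave 0.17. The N-type pore Cacna1b differed by -0.50 and the L-type pore Cacna1c by 0.17, neither of which passed the test.

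Among potassium channels, Kcnmb4, the brain accessory subunit of the BK channel, gave 4.73, 4.51 and 5.61 in Myc primary tumours and 7.76, 7.50 and 7.34 in Shh tumours. Every Shh array exceeded every Myc primary array, and the difference was -2.59 ± 0.61 (limma, adjusted p = 0.013). Kcnk2, a mechanically gated leak channel of the 2-pore class, gave 3.88, 3.84 and 3.94 in Myc primary tumours, below background, and 5.62, 6.00 and 4.93 in Shh tumours. It fell by 1.63 ± 0.36 (limma, adjusted p = 0.0078). Kcnc1, a pore that repolarises fast-firing neurons, gave 5.25, 6.36 and 5.70 in Myc primary tumours and 7.66, 6.95 and 6.69 in Shh tumours. It fell by 1.34 ± 0.35 (limma, adjusted p = 0.021), on 2 of its 4 probe sets, with differences from -2.06 to -0.04 over the 4. Kcns2, a silent subunit that assembles with other pores, also fell by 1.34, with 5.30, 5.59 and 5.66 in Myc primary tumours and 7.20, 7.14 and 6.21 in Shh tumours (limma, adjusted p = 0.019). Kcnh2, the ERG-type pore, fell by 1.01 (limma, adjusted p = 0.025), to a mean below background in Myc primary tumours. Kcnab2, a beta subunit of Shaker-type channels, fell by 0.92 (limma, adjusted p = 0.035), on 1 of its 2 probe sets. Kcnj5, an inward rectifier gated by G proteins, was higher by 0.92 with overlapping arrays (limma, adjusted p = 0.037). It was called on 1 of its 2 probe sets, and the other gave 0.07.

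Among sodium channels, Scn8a, a main pore of the axon initial segment, gave 7.15, 7.22 and 6.54 in Myc primary tumours and 8.56, 8.43 and 7.79 in Shh tumours. It fell by 1.29 ± 0.27 (limma, adjusted p = 0.0069), on 3 of 4 probe sets. Scn3b, an accessory subunit, gave 7.03, 6.34 and 7.03 in Myc primary tumours and 8.41, 7.72 and 7.81 in Shh tumours. It fell by 1.18 ± 0.26 (limma, adjusted p = 0.0075), on 1 of 2 probe sets. Both genes were thus lower in every Myc primary array than in every Shh array. Scn2a, the pore of young axons, had 7.26, 4.7 and 6.40 in Myc primary tumours and 7.65, 7.26 and 6.21 in Shh tumours, and its difference of -0.92 did not pass the test.

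The remaining calls were small or near the floor. Scn1a at -0.80, Kcnip2 at 0.67, Kcne4 at 0.58 and the noncoding Kcnmb4os1 at 0.29 had both groups below background. Kcnmb4os2, a noncoding RNA named for lying antisense to Kcnmb4, fell by 1.23 (limma, adjusted p = 0.029), beside the fall of Kcnmb4 itself. Kcnh1, an EAG-type pore, gave 4.50, 5.50 and 4.90 in Myc primary tumours and 4.02, 3.71 and 3.66 in Shh tumours, and missed the threshold at 1.17 (limma, adjusted p = 0.059). Kcna1, a Shaker-type pore, varied within both groups, with 5.23, 8.51 and 6.92 in Myc primary tumours and 8.26, 4.96 and 6.40 in Shh tumours, and its difference of 0.34 turned to -0.47 without Myc primary array 2 and to -0.44 without Shh array 2.

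**Figure D2:**
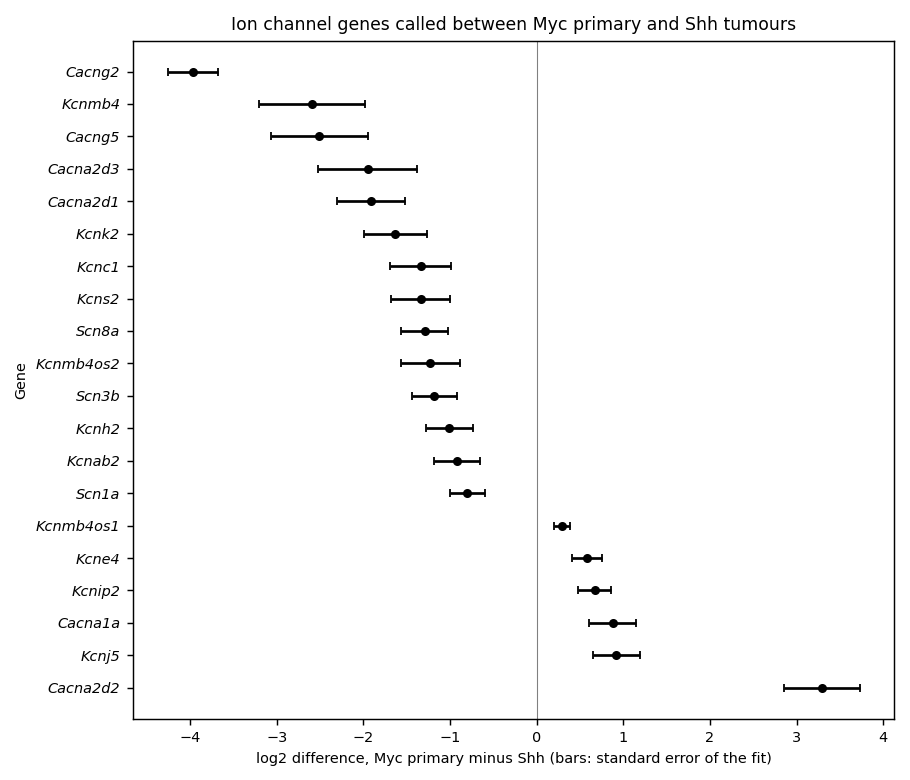
Log2 differences, Myc primary minus Shh, of the 20 ion channel genes called between the 2 tumour types, with genes down the page and bars giving the standard error of the fit. Cacng2 at -3.97 and Cacna2d2 at 3.29 lie farthest from 0.

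Leaving out single arrays moved the number of calls between 12 and 27, and the number higher between 1, without Shh array 3, and 11, without Myc secondary array 1. It was 13 without Myc primary array 1, 12 without Shh array 1 and 13 without Shh array 2, and 11 when only these 6 arrays were fitted. That last fit kept 9 of the 20 and ended the calls of Cacng5 (adjusted p = 0.074), Cacna2d3 (0.1), Kcnc1 (0.063), Kcnmb4os2 (0.054), Kcnh2 (0.066), Kcnab2 (0.15), Kcnj5 (0.16) and Cacna1a (0.13) among the genes above background. The calls of Cacng2, Cacna2d2, Cacna2d1, Kcnmb4, Kcnk2, Scn8a and Scn3b held in every setting run, and Kcns2 lost its call without Myc primary array 1 (adjusted p = 0.065), Shh array 1 (0.077) or Shh array 2 (0.078).

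Cell type markers moved along the same contrast. All 5 measured markers of granule neuron progenitors and 5 of 7 of granule neurons were lower in Myc primary than in Shh tumours, with median differences of -5.11 and -1.30. The granule neuron medians were 9.70 to 10.37 in Myc primary tumours and 10.72 to 11.14 in Shh tumours. None of 7 oligodendrocyte markers was called, with medians of 4.43 to 9.27 in Myc primary tumours and 5.01 to 5.64 in Shh tumours. Of 7 astroglial markers 1 was higher and 1 lower, and 1 of 5 endothelial and 1 of 5 fibroblast markers were higher. Of 6 GABAergic and Purkinje markers 1 was lower, and of 6 microglial markers 0 were called. The part of these cell types in the channel differences was not tested. Without Myc primary array 3, GFP-negative array 3 and Myc secondary array 1, which earlier work on these data named as standing apart, 29 members were called, including 18 of the 20, and 14 of the 29 were higher. Under this and every other alternative setting only members were counted, so no share over all genes is given.

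Genes related to these channels, among them partners, regulators and other channels, were counted from a list of 32, of which 29 were measured. In Myc primary against Shh tumours, 1 was higher and 5 were lower, a called share of 20.7%, where 15.8% of all genes were called. Nalcn, the pore of the sodium leak current, fell by 4.62 ± 0.39 (limma, adjusted p = 9.7e-06), and Dlg2, a scaffold that clusters potassium channels, fell by 2.66 ± 0.44 (limma, adjusted p = 0.0014). Nedd4l, a ubiquitin ligase of sodium channels, fell by 2.41, and the node and adhesion proteins Nrcam and Cntn2 fell by 1.99 and 1.30. Lgi2, a secreted synaptic protein, was higher by 3.24 ± 0.48 (limma, adjusted p = 6.4e-04). The median over the list was -0.30.

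Myc secondary tumours were then set against Myc primary tumours, which asks whether passage through sphere culture and a further transplant goes with a change in channel expression. No member passed limma's test, where 0.719% of all genes did, 0.257% higher and 0.462% lower. At an unadjusted p below 0.05 there were 16 of 111 members, against 2137 of 17097 genes. Other settings called 0 to 3 members. Cacna1d, a pore of L-type calcium channels, was singled out after its values were seen. It gave 4.28, 4.34 and 3.54 in Myc secondary tumours, below background, and 5.60, 5.72 and 5.88 in Myc primary tumours. Its difference was -1.68 ± 0.38 (limma, unadjusted p = 8.0e-04, adjusted p = 0.071), and its adjusted p was 0.037 with array weights.

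The alpha2delta pattern of the primary tumours was seen on the secondary arrays too. Cacna2d2 gave 8.25, 6.80 and 8.67 in Myc secondary tumours, and Cacna2d1 gave 8.82, 7.16 and 8.03. Over both Myc groups Cacna2d2 ran from 6.80 to 8.69, and over the other 9 arrays from 4.45 to 6.49. Kcnk2 lay between 3.79 and 4.15 on the 6 Myc arrays and between 4.83 and 7.68 on the other 9. Cacng2 gave 4.32, 4.10 and 4.04 in Myc secondary tumours, all below background.

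Myc secondary array 1 differed from its partners at several potassium and sodium channel genes. Kcnmb4 gave 7.18 there and 4.16 and 4.25 on Myc secondary arrays 2 and 3. Kcnd3, the pore of a fast inactivating potassium current, gave 7.43 there against 4.62 and 5.04. Scn3a, the sodium channel pore of the embryonic brain, gave 5.94 there against 3.80 and 3.62. Without the 3 arrays that stand apart, 1 member was called between Myc secondary and Myc primary tumours.

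GFP-positive cells were set against GFP-negative cells, which gives the channel genes of Atoh1-marked cells beside the rest of the day 6 cerebellum. Cacna2d1 was 47.7-fold higher in GFP-positive cells, Cacng2 17-fold, Kcnj6 13-fold, Kcnk1 11.8-fold, Kcnc1 10.8-fold and Cacna1b 10.2-fold. In the other direction Cacng5 was 28.2-fold lower, Kcnn2 17.1-fold and Kcnj10 11.4-fold. In all, 27 members were called, or 24.3%, where 26.3% of all genes were. Of these, 18 were higher, where 12.6% of all genes were, and 9 were lower, where 13.8% were. The median difference was 0.07 over members and 0.04 over all genes.

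Cacna2d1 gave 10.07, 9.62 and 9.73 in GFP-positive cells and 3.92, 4.57 and 4.20 in GFP-negative cells, a difference of 5.57 ± 0.39 (limma, adjusted p = 7.4e-07). The GFP-negative arrays were all below background. Cacng2 gave 8.75, 8.66 and 8.77 in GFP-positive cells and 4.28, 5.20 and 4.44 in GFP-negative cells, a difference of 4.09 ± 0.29 (limma, adjusted p = 1.0e-06). Cacna1b, the N-type pore of presynaptic terminals, gave 9.11, 8.75 and 9.10 in GFP-positive cells and 5.31, 6.13 and 5.47 in GFP-negative cells. It rose by 3.35 ± 0.40 (limma, adjusted p = 5.2e-05). These calcium channel genes were thus apart on every array. Cacng5 showed the reverse, with 3.80, 3.90 and 3.96 in GFP-positive cells, below background, and 9.53, 8.26 and 8.32 in GFP-negative cells (-4.82 ± 0.56, limma, adjusted p = 3.9e-05).

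Of the 15 inward rectifiers, 3 were higher and 1 was lower in GFP-positive cells. This called share of 26.7% was close to the 26.3% of all genes. Kcnj6, a channel gated by G proteins whose mutation kills granule neurons in the weaver mouse, gave 8.11, 8.06 and 8.02 in GFP-positive cells and 4.17, 3.96 and 4.97 in GFP-negative cells. It rose by 3.70 ± 0.29 (limma, adjusted p = 1.9e-06), and the other 12 arrays of the study lay between 3.96 and 5.40. Kcnj3, its partner subunit, rose by 3.22 ± 0.26 (limma, adjusted p = 2.1e-06), with 7.13, 6.82 and 6.73 in GFP-positive cells and 3.66, 4.01 and 3.36 in GFP-negative cells. Kcnj10, the potassium buffering channel of astroglia and oligodendrocytes, gave 4.58, 4.50 and 4.39 in GFP-positive cells, below background, and 8.51, 7.73 and 7.76 in GFP-negative cells. It fell by 3.51 ± 0.48 (limma, adjusted p = 1.5e-04).

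Of the other potassium channels, 6 of 28 voltage-gated pores were called, 4 of them higher, and 4 of 9 of the 2-pore class, 2 of them higher. These shares were 21.4% and 44.4%, where 26.3% of all genes were called. Kcnc1 gave 8.37, 8.04 and 8.61 in GFP-positive cells and 4.7, 4.84 and 5.18 in GFP-negative cells (3.43 ± 0.35, limma, adjusted p = 1.3e-05). Kcnk1, a weakly rectifying channel of the 2-pore class, gave 10.46, 10.14 and 10.27 in GFP-positive cells and 7.27, 7.36 and 5.57 in GFP-negative cells (3.56 ± 0.45, limma, adjusted p = 7.8e-05). Both were higher on each GFP-positive array. Kcnk6, of the same class, was below background on the GFP-positive arrays and gave 6.77, 7.45 and 5.36 on the GFP-negative arrays (-2.98 ± 0.39, limma, adjusted p = 9.4e-05). Kcnn2, a small-conductance channel opened by calcium, gave 4.55, 4.99 and 4.89 in GFP-positive cells and 9.31, 8.66 and 8.74 in GFP-negative cells (-4.09 ± 0.37, limma, adjusted p = 4.9e-06). Kcne4, an accessory subunit that inhibits some pores, fell by 1.69 ± 0.17 (limma, adjusted p = 1.3e-05). Scn8a rose by 2.15 and Scn3b by 1.31, with adjusted p-values from limma of 8.2e-05 and 0.002.

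The 2 sorted populations differed widely in cell makeup. Of the markers measured, 6 of 7 astroglial, 7 of 7 oligodendrocyte and 6 of 6 microglial genes were lower in GFP-positive cells, and 6 of 7 granule neuron genes were higher. Median signals of the microglial list were 3.81 to 4.38 in GFP-positive cells and 9.16 to 10.36 in GFP-negative cells. The GABAergic and Purkinje list had medians below background, at 4.30 to 4.68 in GFP-positive and 4.14 to 4.43 in GFP-negative cells, but Gad1, which makes the transmitter GABA, gave 9.10, 8.98 and 9.77 in GFP-positive cells and 7.69, 9.15 and 8.35 in GFP-negative cells. Slc32a1, which loads GABA into vesicles, gave 6.03 to 6.24 in GFP-positive and 4.62 to 6.37 in GFP-negative cells. The part of each cell type in these differences was not tested. Centring each array on its median gene, which moved the median gene by up to 0.5, called 51 members, 46 of them higher. Centring shifts every gene of an array, and the share of all genes called with it was not counted.

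**Figure D3:**
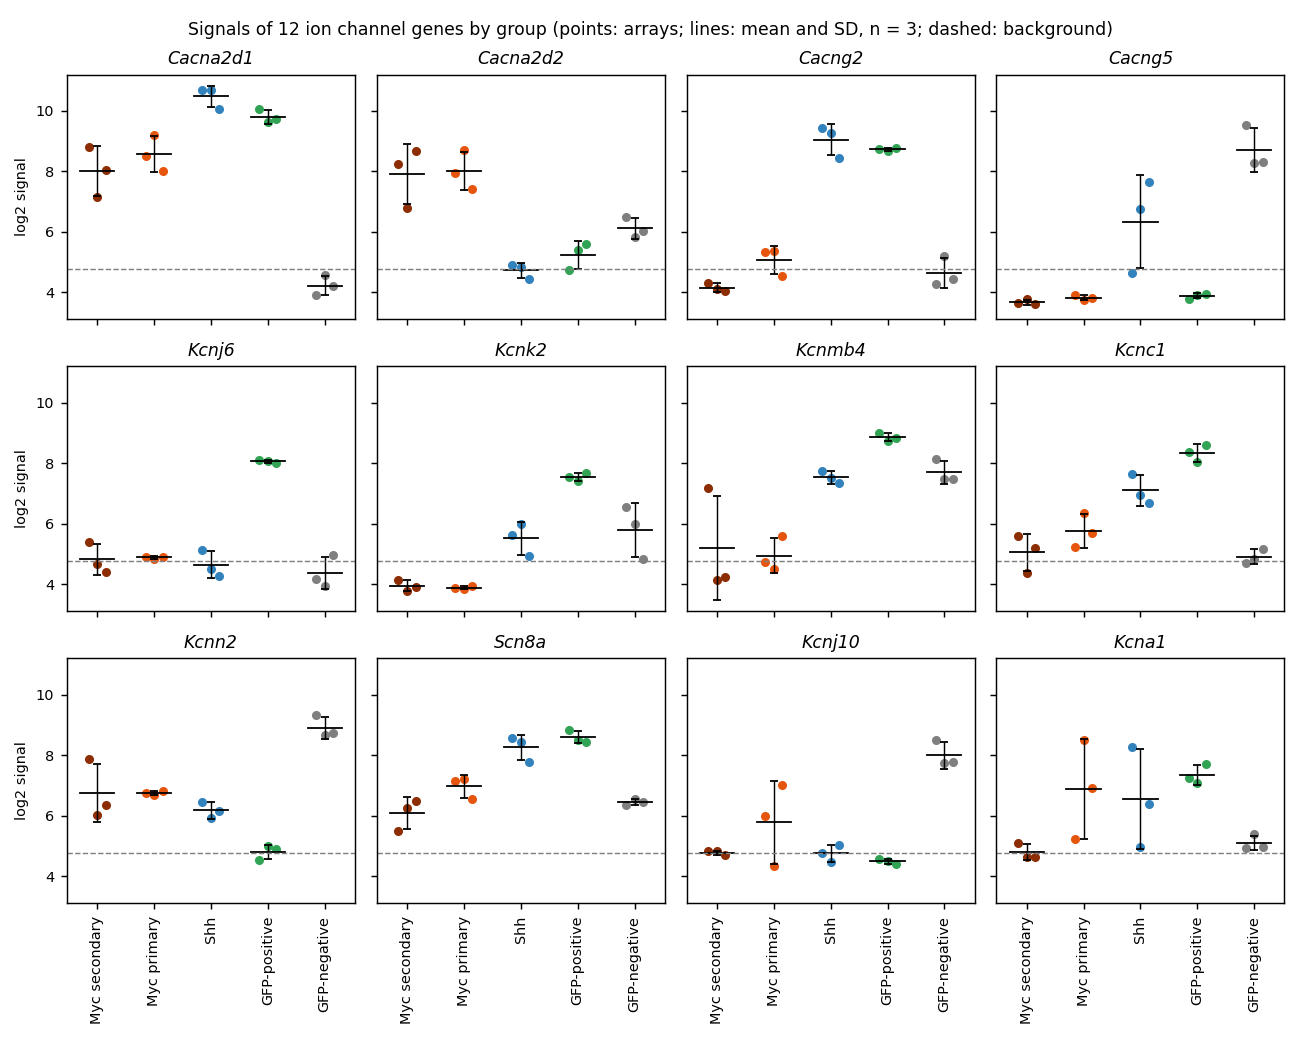
Log2 signals of 12 ion channel genes, with groups along the horizontal axis, points for arrays, lines for the mean and SD (n = 3) and a dashed line at the background of 4.77. Kcnj6 is above 8 only in GFP-positive cells, Cacna2d2 is highest on the Myc arrays, and Kcna1 spreads widely within the Myc primary and Shh groups.

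The comparison of tumour types and that of sorted populations share no arrays. Both came from the same fit, however, and so share each gene's variance estimate, which means that their calls are not independent. Of the 14 members lower in Myc primary than in Shh tumours, 8 (57.1%) were among the 18 higher in GFP-positive than in GFP-negative cells, of which they made 44.4%. Over all genes the same overlap was 372 genes, or 29.7% of the 1254 lower and 17.3% of the 2149 higher, and the difference between members and all genes was not tested. The 8 shared members were Cacna2d1, Cacng2, Kcnc1, Kcnk2, Kcns2, Scn3b, Scn8a and Kcnmb4os2. Of these, Kcnc1 and Kcnmb4os2 lost the call between tumour types when only the arrays of those tumours were fitted. Cacng5 was lower in both comparisons, and Kcne4 was higher in Myc primary tumours and lower in GFP-positive cells. On the 6 Shh and GFP-positive arrays together, Cacng2 ran from 8.45 to 9.42, and on the other 9 from 4.04 to 5.36. Scn8a ran from 7.79 to 8.84 on those 6 arrays and from 5.49 to 7.22 on the other 9.

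**Figure D4:**
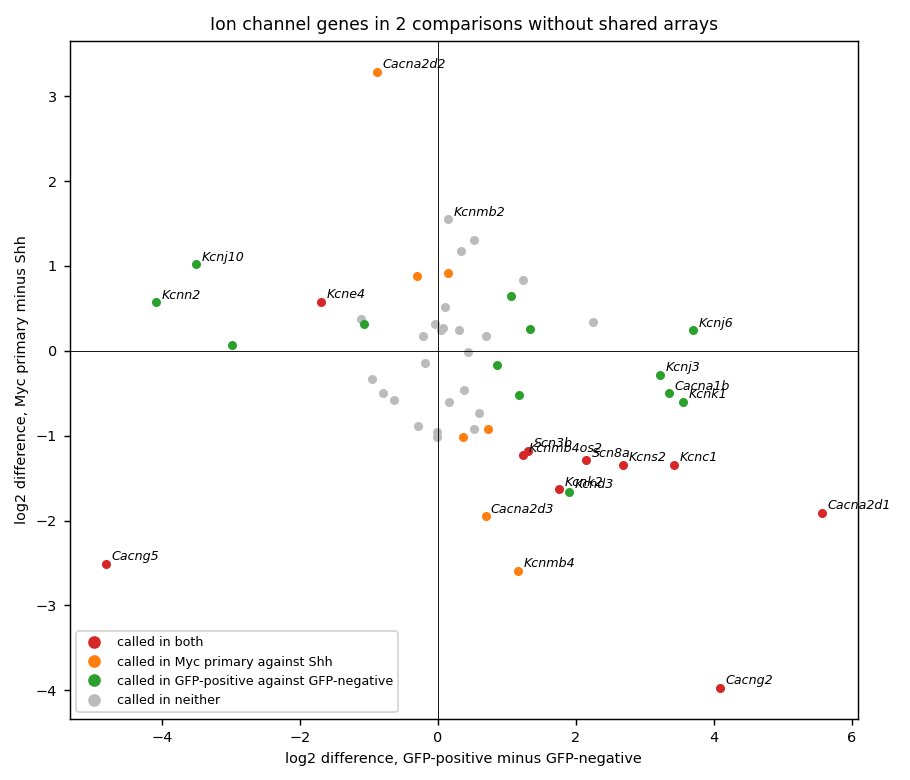
Log2 differences of the 55 ion channel genes above background in at least 1 group, GFP-positive minus GFP-negative on the horizontal axis and Myc primary minus Shh on the vertical axis, coloured by which comparison called them. Cacng2 (4.09 and -3.97) and Cacna2d1 (5.57 and -1.91) lie at the lower right, Cacng5 (-4.82 and -2.51) at the lower left and Cacna2d2 (3.29 on the vertical axis) at the top.

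Shh tumours were set against GFP-positive cells, the sorted population with the most similar progenitor marker levels. Here 7 members were called, or 6.31%, where 7.56% of all genes were, and 3 were higher, where 4.63% of all genes were, and 4 lower, where 2.92% were. Kcnj6 had the largest difference, with 5.15, 4.52 and 4.29 in Shh tumours and 8.11, 8.06 and 8.02 in GFP-positive cells (-3.41 ± 0.29, limma, adjusted p = 2.4e-05). Kcnk2 gave 5.62, 6.00 and 4.93 in Shh tumours and 7.55, 7.43 and 7.68 in GFP-positive cells (-2.04 ± 0.36, limma, adjusted p = 0.0038). Both channels hold neurons near rest, and both were lower on every Shh array.

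Kcnip3, a calcium-binding partner of A-type potassium channels that also acts on transcription, fell by 1.78 ± 0.20 (limma, adjusted p = 2.1e-04), with 5.78, 6.00 and 6.43 in Shh tumours and 7.77, 7.82 and 7.96 in GFP-positive cells. Kcnn1, of the small-conductance class, was lower by 0.81 (limma, adjusted p = 0.045). On the higher side were Cacng5 by 2.46, on Shh arrays 2 and 3 and not array 1, Kcnn2 by 1.37 (limma, adjusted p = 0.04) and Kcnu1, a sperm potassium channel, by 1.21 (limma, adjusted p = 0.024). The count was 3 without GFP-positive array 1 or 2, 4 without GFP-positive array 3 or Shh array 2, and 17 without the 3 arrays that stand apart, all 7 among them. Leaving out any 1 GFP-positive array left 0 members higher, so Cacng5, Kcnn2 and Kcnu1 each lost the call there. Microglial markers moved along this contrast, with 3 of 6 higher in Shh tumours and medians of 4.99 to 5.15 in Shh tumours and 3.81 to 4.38 in GFP-positive cells. GABAergic and Purkinje markers moved too, with 3 of 6 lower and 1 higher in Shh tumours. Gad1 gave 3.51 to 3.83 in Shh tumours and 8.98 to 9.77 in GFP-positive cells, and Slc32a1 gave 3.39 to 3.50 in Shh tumours and 6.03 to 6.24 in GFP-positive cells. The part of these markers' cells in the channel calls was not tested.

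Myc primary tumours were set against both sorted populations of their strain of origin, and these comparisons share the Myc primary arrays with each other and with the comparison against Shh tumours. Against GFP-positive cells, 24 members were called, or 21.6%, where 24.8% of all genes were. Of these, 5 were higher, where 14.5% of all genes were, and 19 were lower, where 10.3% were. Kcnmb4 fell by 3.91 ± 0.61 (limma, adjusted p = 5.2e-04), Kcnk2 fell by 3.67 ± 0.36 (limma, adjusted p = 1.4e-05) and Cacng2 fell by 3.65 ± 0.29 (limma, adjusted p = 3.8e-06). Kcnj6 fell by 3.17 ± 0.29 (limma, adjusted p = 1.0e-05) and Kcnc1 fell by 2.57 ± 0.35 (limma, adjusted p = 1.8e-04). The rises of at least 1 were Cacna2d2 by 2.78 ± 0.44 (limma, adjusted p = 5.3e-04), Kcnn2 by 1.94 ± 0.37 (limma, adjusted p = 0.0019) and Kcnj5 by 1.0 (limma, adjusted p = 0.017). Cacna2d2 was called on 1 of its 3 probe sets. Kcnj5 was called on 1 of its 2 probe sets, and the other gave -0.06.

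Kcnj6 gave 4.92, 4.83 and 4.92 in Myc primary tumours, close to background. Kcnn2 gave 6.75, 6.70 and 6.80 in Myc primary tumours, above the 4.55 to 4.99 of GFP-positive cells and below the 8.66 to 9.31 of GFP-negative cells. Kcna2, a Shaker-type pore placed along axons, gave 5.33, 4.44 and 6.35 in Myc primary tumours and 6.94, 7.06 and 7.66 in GFP-positive cells (-1.85 ± 0.40, limma, adjusted p = 0.0044). The call of Cacna2d1, lower by 1.23 (limma, adjusted p = 0.033), was lost without Myc primary array 3, at -0.95, and under several other settings. Along this contrast 5 of 5 granule progenitor, 6 of 7 granule neuron and 3 of 6 GABAergic and Purkinje markers were lower in Myc primary tumours, while 3 of 6 microglial, 3 of 5 fibroblast, 2 of 7 astroglial and 2 of 7 oligodendrocyte markers were higher, and their part was not tested. Without the 3 arrays that stand apart, 31 members were called, 13 of them higher.

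Against GFP-negative cells, 28 members were called, or 25.2%, where 33.8% of all genes were, with 14 higher, where 19.1% of all genes were, and 14 lower, where 14.7% were. The higher genes were led by Cacna2d1 (4.34 ± 0.39, limma, adjusted p = 4.2e-06), Kcnq5 (2.39 ± 0.50, limma, adjusted p = 0.0025), Cacna1b (2.25 ± 0.40, limma, adjusted p = 8.5e-04), Kcnj3 (2.18 ± 0.26, limma, adjusted p = 3.6e-05) and Kcnk1 (2.05 ± 0.45, limma, adjusted p = 0.0034). Kcnq5, a pore of the slow M current, gave 8.15, 7.98 and 7.73 in Myc primary tumours and 6.5, 5.59 and 4.60 in GFP-negative cells. Its arrays were thus apart, with the GFP-negative arrays spread from 4.60 to 6.5. Kcnq5 was called on 1 of its 3 probe sets, and the lowest difference on the others was -0.12.

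The lower genes were led by Cacng5 (-4.87 ± 0.56, limma, adjusted p = 2.9e-05), Kcnmb4 (-2.76 ± 0.61, limma, adjusted p = 0.0037), Kcnk6 (-2.74 ± 0.39, limma, adjusted p = 1.4e-04), Kcne1l (-2.74 ± 0.43, limma, adjusted p = 3.2e-04) and Kcna2 (-2.65 ± 0.40, limma, adjusted p = 2.3e-04). Kcne1l, an accessory subunit of potassium channels, gave 5.05, 6.23 and 4.35 in Myc primary tumours and 8.67, 7.70 and 7.47 in GFP-negative cells. Kcnj10 fell by 2.23 ± 0.48 (limma, adjusted p = 0.0031), and within the Myc primary tumours it gave 5.98, 4.33 and 7.02, highest on array 3. That array also had the highest oligodendrocyte, astroglial, endothelial and fibroblast medians of the Myc primary tumours. In Myc primary tumours, 6 of 7 astroglial, 6 of 7 oligodendrocyte and 6 of 6 microglial markers were lower than in GFP-negative cells. Granule neuron markers went the other way, with 5 of 7 higher and 1 lower. Of granule progenitor markers 3 of 5 were lower, and of GABAergic and Purkinje markers 2 of 6. The part of these cell types in these calls was not tested. Without the 3 arrays that stand apart, 42 members were called, 25 of them higher.

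The list of related genes gave counts of 2 higher and 1 lower for Shh tumours against GFP-positive cells, 3 and 9 for Myc primary tumours against GFP-positive cells, 5 and 9 against GFP-negative cells, and 7 and 3 for GFP-positive against GFP-negative cells. In that order the called shares were 10.3%, 41.4%, 48.3% and 34.5%, where 7.56%, 24.8%, 33.8% and 26.3% of all genes were called. The difference between this list and all genes was not tested. Rest, the repressor of neuronal genes that binds RE1, was lower by 2.97 ± 0.47 in GFP-positive than in GFP-negative cells (limma, adjusted p = 4.5e-04). Nalcn was higher by 3.24 ± 0.39 in Shh tumours than in GFP-positive cells (limma, adjusted p = 3.4e-04). No gene of this list was called between Myc secondary and Myc primary tumours.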

How the data were processed

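Total RNA was taken with Trizol from tumour cells purified on a Percoll gradient and from sorted cells, per the labels' protocols, and hybridised to 1 one-colour Affymetrix array per sample. The deposited values were log2 signals made by the authors with robust multi-array averaging (RMA) in Partek 6.5, per the submitters' processing notes. The settings of that step are not given in the sources used here. The values, from 2.66 to 14.13, were used with no further scaling. Of 45141 probe sets, 104 controls, 15692 with no listed gene and 551 with several genes were left out. For the other 28898, symbols were updated through the gene ID to RefSeq names for 28689 and kept as listed for 209. Each of 17097 genes took its probe set with the highest mean over the 15 arrays, and 59 members had more than 1 probe set.

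The 5 groups were fitted in 1 limma model (limma 3.58.1, R 4.3.3; 10 residual degrees of freedom), two-sided, with Benjamini-Hochberg adjustment over all 17097 genes, and called at an adjusted p below 0.05. The 6 comparisons and the F-test came from that fit, and steps were tested on simulated data. The number of arrays, 3 per group, limits the precision. Members named with values were, among called ones with a log2 difference of at least 1 and no overlap between the arrays of both groups, the 12 largest rises and falls of Myc primary against Shh and the 5 largest of each elsewhere, plus 38 members fixed by role. Other named members were chosen after their values were seen. The members, lists and motifs were chosen with earlier results of these data known. Figures were drawn with matplotlib 3.10.9. Alternatives covered probe set choice, a filter on dim genes, scaling, the samples in the fit, the variance model, array weights and leaving out arrays.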

Additional observations from a re-analysis of the deposited data

How the results depend on the processing

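Counts of members called, with the main value first, were as follows. Only members were counted under the alternative settings, so no share over all genes stands beside these counts. For Myc primary against Shh tumours the count was 20, 11 with only the arrays of both groups, and 12 to 27 leaving out 1 array. Between Myc secondary and Myc primary tumours the main count was 0, with 1 on the mean of probe sets, on every probe set by itself, with an intensity trend and robust variance, or without the 3 arrays that stand apart, 2 with arrays centred on the median gene, 3 with array weights, and 0 to 1 leaving out 1 array. The single-array cases with a call were Myc primary 2, Shh 2 and Shh 3. For Shh tumours against GFP-positive cells it was 7, 17 with only the arrays of both groups or without the 3 arrays, 25 with array weights, and 3 to 9 leaving out 1 array. For GFP-positive against GFP-negative cells it was 27, 51 with centring and 47 with array weights. The F-test count was 45, and 71 with array weights. The cause of these moves was not tested. Myc primary tumours against either sorted population kept their counts within 1.5 times, at 16 to 30 against GFP-positive and 24 to 31 against GFP-negative cells leaving out 1 array. Without the 3 arrays they were 31 and 42, with 13 and 25 higher, where the main counts had 5 and 14 higher. Centring gave splits of 3 higher of 16 for Myc primary against Shh, 1 of 9 for Shh against GFP-positive, 2 of 23 and 19 of 31 for Myc primary against GFP-positive and GFP-negative cells, and 46 of 51 between the sorted populations; cyclic loess moved the median gene by at most 0.07. Of 3411 values for 143 single differences, 3102 kept direction and call, 280 lost the call, 22 gained it and 7 changed sign. The sign changes for Myc primary against Shh were Kcna1 at -0.47 without Myc primary 2 and -0.44 without Shh 2 (range -0.47 to 1.20 leaving out 1 array), Kcne1l at 0.10 without Myc primary 3 and 0.10 without the 3 arrays (range -0.84 to 0.10), and Cacna1c at -0.05 without Myc primary 2 and -0.09 without Shh 3 (range -0.09 to 0.33). Kcnmb4os1 against GFP-positive cells became -0.01 with centring. Signal near the background of 4.77 limits 56 of the 111 members, which were above it in no group. No paired analysis was possible because the labels give no replicate numbers shared between groups.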
